A study of Mus musculus with 4 samples.

Results

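The cells described here are tumor cells of the myeloid sort, called macrophages for their C1q RNA. They held many UMIs (unique molecular identifiers, which count RNA molecules) of the chemokine gene Cxcl9 together with the complement C1q genes. Monocyte marker RNA was also found in them, as given below. They were chosen by their RNA: a kept cell was a member when C1qa, C1qb and C1qc summed to at least 10 UMIs and Cxcl9 and Gpr84 summed to at least 10. It also had to hold fewer than 2 UMIs of Folr2 and Fcrls, 5 of Mmp12 and Mmp13, 10 of S100a8 and S100a9, 5 of Ncr1, Klrb1c, Gzma and Prf1, and 2 of Cd209a. To be kept, a barcode needed 200 or more genes and 500 or more gene UMIs, with mitochondrial UMIs not above 10%. Of 25333 kept cells, 1000 were members: 144 of 10193 in the WT library and 856 of 15140 in the VISTA KO library. The working label of these cells, Cxcl9+ Gpr84+ activated macrophages, was met by the data only in part. Cxcl9 alone reached 10 UMIs in 138 of the 144 WT members and 831 of the 856 VISTA KO members, and no kept cell of either library had 10 Gpr84 UMIs. Gpr84 was at 0 in 76.4% of WT and 59.8% of VISTA KO members. Klf4 and Socs3, also given as markers, were not set apart by the rule of size used below. The members are therefore called Cxcl9-high C1q macrophages.

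The study asked, per its title, about VISTA in myeloid-derived suppressor cells, and compared sorted tumor myeloid cells with and without VISTA, an inhibitory receptor encoded by Vsir. Bone marrow chimeras of the C57/BL6 strain carried marrow of WT and VISTA KO donors for 6 weeks, so that the deletion could reach donor-derived cells and not the other cells of the host. MC38, a transplanted mouse colon carcinoma line, was grown in them to a diameter of 9 to 10 mm, and tumors were pooled and digested. CD45.1 and CD45.2, the allelic forms of a leukocyte surface protein, told the WT from the KO cells, and viable CD11b+ cells were sorted, with 10000 loaded. The groups were WT (donor marrow with VISTA) and VISTA KO (donor marrow without it), both in tumor-bearing chimeras with no drug named. In each group, RNA was sequenced in 1 library, and the surface proteins Ly6C, Ly6G and CD11c were read as antibody tags from the same cells in another. With 1 library per group there was no test and no replicate check, and each 95% interval below covers counting error only.

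CXCL9 is a chemokine that interferon-gamma induces in macrophages and that draws T cells carrying the receptor CXCR3. Interferon-gamma acts mainly through GAS elements in promoters, while type I interferons act mainly through ISRE elements. C1q starts the classical complement cascade and is made by mature tissue macrophages more than by fresh monocytes. GPR84 is a receptor for medium-chain fatty acids that inflammatory stimuli raise in myeloid cells. KLF4 is a zinc finger factor of monocytes and macrophages, and SOCS3 is an inhibitor of cytokine signalling that STAT3 induces.

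Promoter sequences are shown for Cxcl9 itself and for 4 genes that stood higher in the members than in other C1q macrophages in both libraries, since the promoters of interferon-gamma targets are where GAS and ISRE elements are looked for. Each runs from 250 bases before to 50 bases after the annotated start, 5′ to 3′ on the gene's strand, from RefSeq on GRCm38.p6. Capitals mark a match to the GAS letters TTCNNNGAA or to an ISRE core, on either strand.
Cxcl9, chr5:92328030-92328329, minus strand: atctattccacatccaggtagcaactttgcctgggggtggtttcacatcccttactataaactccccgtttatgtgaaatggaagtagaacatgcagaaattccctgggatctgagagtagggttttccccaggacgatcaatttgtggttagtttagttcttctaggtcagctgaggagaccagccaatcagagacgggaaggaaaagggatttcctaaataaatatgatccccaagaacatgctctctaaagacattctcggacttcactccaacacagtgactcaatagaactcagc
Serpina3g, chr12:104235897-104236196, plus strand: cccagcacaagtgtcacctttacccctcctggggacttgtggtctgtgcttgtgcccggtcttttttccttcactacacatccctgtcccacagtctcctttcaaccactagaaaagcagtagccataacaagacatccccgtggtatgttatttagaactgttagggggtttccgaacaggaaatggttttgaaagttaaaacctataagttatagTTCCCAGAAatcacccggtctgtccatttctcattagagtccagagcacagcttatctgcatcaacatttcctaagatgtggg
Sod2, chr17:13007589-13007888, plus strand: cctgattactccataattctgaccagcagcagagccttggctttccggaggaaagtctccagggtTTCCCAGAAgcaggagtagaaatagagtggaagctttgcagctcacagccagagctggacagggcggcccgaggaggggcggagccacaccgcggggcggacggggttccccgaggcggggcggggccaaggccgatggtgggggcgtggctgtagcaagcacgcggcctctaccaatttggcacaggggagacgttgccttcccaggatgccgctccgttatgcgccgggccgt
Fas, chr19:34290409-34290708, plus strand: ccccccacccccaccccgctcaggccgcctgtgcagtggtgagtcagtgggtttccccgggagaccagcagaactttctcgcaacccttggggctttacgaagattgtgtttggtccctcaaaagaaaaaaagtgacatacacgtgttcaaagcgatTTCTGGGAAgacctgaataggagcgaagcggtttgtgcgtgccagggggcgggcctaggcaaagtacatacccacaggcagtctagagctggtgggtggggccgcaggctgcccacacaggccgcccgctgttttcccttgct
Calhm6, chr10:34127923-34128222, minus strand: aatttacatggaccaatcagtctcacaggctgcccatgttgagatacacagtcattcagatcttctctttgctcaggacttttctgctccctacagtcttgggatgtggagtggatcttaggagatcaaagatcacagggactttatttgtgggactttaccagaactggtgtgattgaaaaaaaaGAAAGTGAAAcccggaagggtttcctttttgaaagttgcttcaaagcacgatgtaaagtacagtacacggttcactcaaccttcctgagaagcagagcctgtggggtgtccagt
GAS letters were found in 4 of 19 promoters of genes higher in the members that had an entry (Fas, Gbp5, Serpina3g and Sod2, 21.1%), beside 8.47% of all 27025 promoters. The genes lower in the members held them in 2 of 17. The ISRE core was found in 4 of 19 (Calhm6, Gbp2, Gbp5 and Slamf8), beside 3.49% of all promoters, and in 2 of 17 of the lower genes. Serpina3g had GAS letters that begin 33 bases before the start, Fas 93 and Sod2 185, and Calhm6 had its ISRE core at 64. These 4 genes, printed above, each hold a match and do not stand for all 19 promoters. GAS letters and the ISRE core are not in the windows of Cxcl9 and Gpr84. A match is a run of letters and not a measured site.

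The antibody tags were read through barcodes of 15 bases, printed here because they are the only measure of protein on these cells.
CD11c tag: GTTATGGACGCTTGC
Ly6G tag: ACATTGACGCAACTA
Ly6C tag: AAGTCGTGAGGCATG

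The Vsir level was compared first, because the groups are defined by this gene (ENSMUSG00000020101, chr10:60346851-60430294). UMIs were summed over the members of a library and given per 1000000 of that sum (CPM). Vsir stood at 113.7 CPM (96.0 to 133.7; 146 UMIs) in WT members and at 41.5 (37.2 to 46.3; 329 UMIs) in VISTA KO members. The log2 ratio, with a pseudocount of 1 UMI per sum and its exact conditional binomial interval, was -1.46 (-1.74 to -1.16). In other C1q macrophages it was -1.29, from 139.3 and 57.1 CPM. Droplets led by NK cell genes with little C1q held 53.7 CPM (WT) and 13.5 CPM (VISTA KO). The sources used here do not give which part of Vsir was deleted, so the remaining RNA checks nothing about the genotype.

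Cxcl9-high C1q macrophages took a larger share of the VISTA KO library. Their share of kept cells was 1.41% in WT (exact binomial interval 1.19 to 1.66) and 5.65% in VISTA KO (5.29 to 6.03), a 4.0-fold difference (3.35 to 4.81). Among kept cells with a C1q sum of at least 10 UMIs they were 4.44% of 3244 in WT (3.76 to 5.21) and 14.3% of 6006 in VISTA KO (13.4 to 15.2), which is 3.21-fold. Among kept cells with at least 10 UMIs of Cxcl9 and Gpr84 they were 20.3% of 710 and 44.1% of 1942, which is 2.17-fold. The CD11b+ sort and the limits of the rule frame these shares. Both thresholds were met by 369 WT and 1185 VISTA KO cells, and the limits then left out 225 and 329 of them, mostly through S100a8 and S100a9 (186 and 183) and Folr2 and Fcrls (73 and 102). Without the limits the shares were 3.62% and 7.83%, or 2.16-fold (1.92 to 2.44).

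Depth bears on a rule in raw UMIs. The median member held 7953.5 UMIs in WT and 7990 in VISTA KO, against 4692 and 4212.5 over all kept cells. With each cell thinned to 3000 UMIs, which left out 2480 WT and 4732 VISTA KO cells, the shares were 0.622% and 2.90%, or 4.66-fold (3.43 to 6.46). Doublets were not called, and 17 WT and 169 VISTA KO members held more than 3 times their library's median UMIs. Without cells of that depth the difference was 3.61-fold (2.99 to 4.40). Barcode sequences found in both libraries numbered 47, and 1 WT and 2 VISTA KO members carried one.

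**Figure D1:**
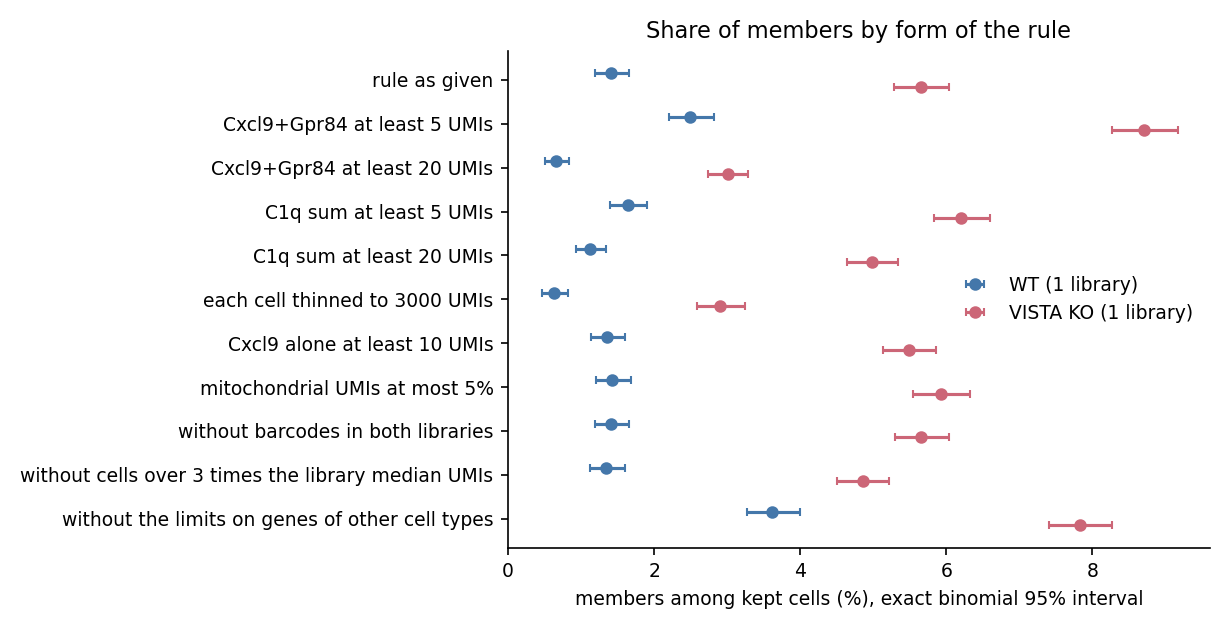
Members as a percentage of kept cells (x axis) in the WT and VISTA KO library, 1 library each, under the rule as given and 10 other forms of it (rows), with exact binomial 95% intervals. The VISTA KO point lies right of the WT point in each row, from 0.622% against 2.90% after thinning up to 8.71% in VISTA KO, against 2.49% in WT, with at least 5 UMIs of Cxcl9 and Gpr84, and the highest WT share was 3.62%, against 7.83%, without the limits.

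Droplets of another type also held these genes, at low counts, and the part of free RNA in them was not tested. In droplets with at least 5 UMIs of the NK genes and a C1q sum under 10 (566 in WT, 471 in VISTA KO, median 2330 and 2614 UMIs), the Cxcl9 level was 48.8 CPM for WT and 257 for VISTA KO. At the members' median depth that is 0.388 and 2.05 UMIs of Cxcl9, beside the 10 that the rule asked of Cxcl9 and Gpr84 together. Cxcl9 was found in 4.59% of these WT droplets and 27.4% of the VISTA KO ones, so its level is a mean over droplets that mostly held none. C1qa stood at 49.4 and 148.6 CPM there. Both genes were higher in such droplets of the VISTA KO library, and the part of this in the share of members was not tested.

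The genes of the rule are described without a test, since they chose the cells. Cxcl9 (ENSMUSG00000029417, chr5:92321331-92328079) had a median of 18.5 UMIs per WT member, from 5 to 70, and of 20 per VISTA KO member, from 5 to 121. Its summed level was 2386 CPM in WT and 2705 in VISTA KO members, against 117 and 218 CPM in other C1q macrophages. Gpr84 (ENSMUSG00000063234, chr15:103308233-103310670) had a median of 0, with at most 5 UMIs in a WT and 9 in a VISTA KO member, and stood at 38.9 and 74.0 CPM. The median C1q sum was 44.5 UMIs per WT member and 53 per VISTA KO member. The members were 1.41% and 5.65% of kept cells and held 14.7% of all Cxcl9 UMIs of the WT library and 35.5% of those of the VISTA KO library. They held 3.96% and 19.8% of the Gpr84 UMIs, beside 2.08% and 9.87% of all UMIs.

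The members were then set beside the other C1q macrophages, kept cells that met each limit and the C1q threshold but had fewer than 10 UMIs of Cxcl9 and Gpr84 (1416 in WT, 3703 in VISTA KO). Each library was compared within itself. A gene was counted when it was at least 1.5-fold apart in the same direction in both libraries, its interval left out equality in both, and each library held at least 100 UMIs of it. Of 6704 genes, 25 were higher in the members (0.373%) and 21 were lower (0.313%). Genes of the rule were left out of these counts. Members were deeper, with medians of 7953.5 against 5511.5 UMIs in WT and 7990 against 5138 in VISTA KO, and levels are in CPM.

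Genes that interferon-gamma induces in macrophages were among those on the higher side. Serpina3g, a serine protease inhibitor, stood at 96.5 CPM in WT members against 27.2 in other WT C1q macrophages, a log2 ratio of 1.84 (1.51 to 2.15). In the VISTA KO library it stood at 105.2 against 38.1 CPM, a log2 ratio of 1.46 (1.32 to 1.60). The Serpina3 genes are a family of close copies, so reads may be split among them. Ccl5, a chemokine for T cells and monocytes, stood at 1501 against 671 CPM in WT (log2 ratio 1.16) and at 2922 against 1652 in VISTA KO (0.82). Cd40, the costimulatory receptor, had log2 ratios of 1.16 and 0.60. The guanylate binding proteins Gbp2 (0.80 and 0.74) and Gbp5 (0.76 and 0.72), Slamf8 (0.88 and 0.71) and the Ly6 family member Ly6i (0.81 and 0.83) were also higher. These were the 7 members past the rule of 33 measured on the list of T cell chemokines and interferon-gamma induced genes, with 0 lower. The list's median log2 ratio was 0.52 in WT and 0.33 in VISTA KO, beside 0.01 and -0.03 over all genes tested. Of the 33 genes, 33 were above 0 in WT and 31 in VISTA KO.

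Some well known members of the list were less than 1.5-fold apart in both libraries. Cxcl10, the companion chemokine that also binds CXCR3, stood at 2659 against 1818 CPM in WT (log2 ratio 0.55) and 1936 against 1440 in VISTA KO (0.43). Irf1, a transcription factor that interferons induce, had log2 ratios of 0.51 and 0.26. Of the type I interferon-stimulated genes 0 of 38 were past the rule in either direction, with a median of -0.08 in both libraries. Ifit3 had log2 ratios of -0.28 and -0.17, and Rsad2 -0.25 and -0.12.

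Other effector genes stood higher in smaller number. Sod2, the mitochondrial superoxide dismutase that NF-kappaB induces, stood at 555 against 253 CPM in WT (log2 ratio 1.14) and 593 against 283 in VISTA KO (1.07). It was 1 of 2 genes past the rule of 29 on the NF-kappaB list, with Marcksl1. Nos2, which makes nitric oxide, stood at 76.3 against 45.5 CPM in WT (0.76) and 96.3 against 44.2 in VISTA KO (1.12), the only 1 of 13 arginine and nitric oxide genes past the rule. C3, the central complement component, had log2 ratios of 0.80 and 0.82, and was 1 of 6 on its list. Batf2, a factor that interferon-gamma induces, had 1.11 and 0.59. Fas, the death receptor, had 0.90 and 0.87, and Mmp25, a membrane-bound protease, 1.29 and 0.82. The ion channel gene Calhm6 (1.14 and 0.84), the glucose transporter family gene Slc2a6 (1.00 and 0.92), AW112010 (1.14 and 0.83), Klrb1b (1.33 and 0.85) and Smpdl3b (0.85 and 0.83) complete the 10 highest.

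Chemokines for monocytes and genes of lipid handling were on the lower side. Ccl2, the main ligand of the monocyte receptor CCR2, stood at 1903 against 3537 CPM in WT (log2 ratio -0.89) and 1274 against 2309 in VISTA KO (-0.86). Ccl7 had -1.03 and -1.06, and Ccl12 -0.80 and -0.60. With Cxcl2 and Cxcl14 they were the 5 of 24 inflammatory cytokine and chemokine genes past the rule, with 0 higher. Spp1, which encodes osteopontin (-0.94 and -0.91), the fatty acid transporter Cd36 (-0.60 and -1.04) and the lysosomal protease Ctsl (-0.69 and -0.69) were 3 of 24 lipid handling and TREM2 genes. Pf4, a chemokine of resident macrophages, stood at 232 against 492 CPM in WT (-1.08) and 151.5 against 302 in VISTA KO (-1.0), and with Retnla was 1 of 2 of 18 alternative activation genes. In WT members 5 cells held 65.4% of the Pf4 UMIs, and in each library Retnla was found in under 5% of members. Ms4a7, a macrophage membrane gene, had -0.74 and -0.80. The prostaglandin and leukotriene synthases Hpgds (-1.41 and -1.10) and Ltc4s (-0.95 and -1.27) and the retinal reductase Dhrs3 (-0.86 and -0.70) were also lower, Hpgds and Ltc4s at under 10 CPM in the members. Among cells of 5000 to 20000 UMIs, Ms4a7 was under 1.5-fold in WT (-0.52). Hpgds, Ltc4s and Cxcl14 stayed over 1.5-fold lower in both libraries there, but no longer met the UMI minimum or the interval of the rule.

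**Figure D2:**
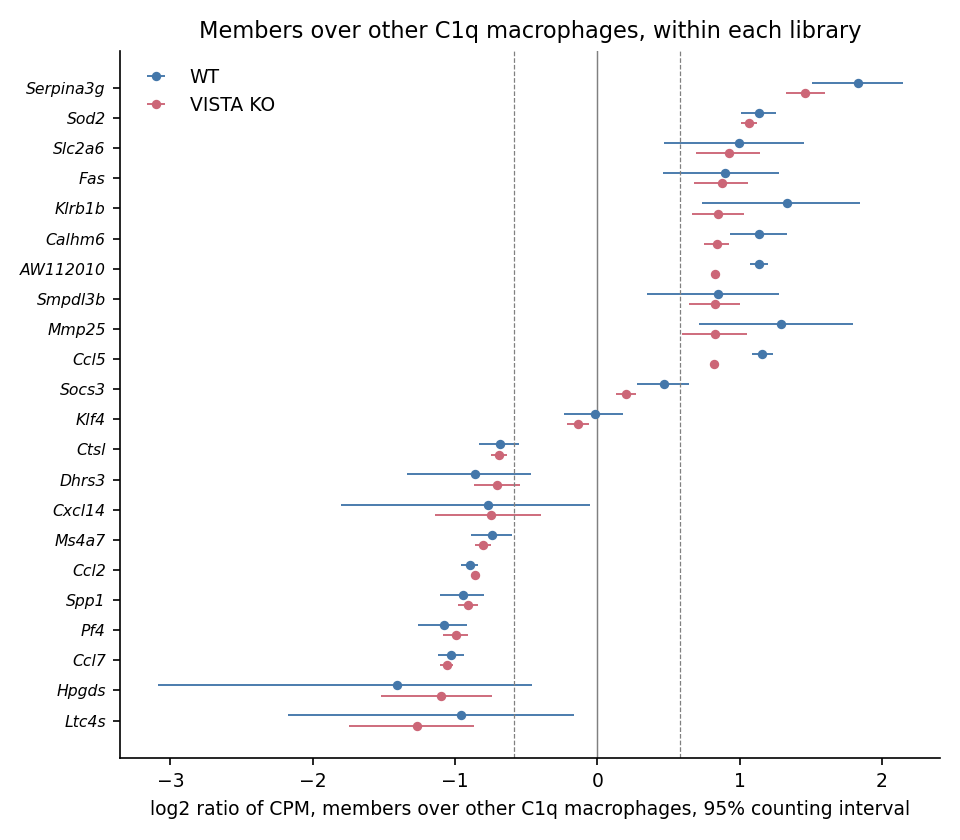
Log2 ratio of CPM in members over other C1q macrophages (x axis) for the 20 named genes and for Klf4 and Socs3 (rows), in WT and VISTA KO with 95% counting intervals. Dashed lines mark 1.5-fold. Serpina3g lies farthest right at 1.84 and 1.46, and the Klf4 points lie near 0 at -0.02 and -0.13.

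The remaining given markers, Klf4 and Socs3, were not past the rule of size. Klf4 stood at 170.5 CPM in WT members against 173.2 in other C1q macrophages (log2 ratio -0.02, -0.23 to 0.18) and at 219.9 against 241.6 in VISTA KO (-0.13, -0.21 to -0.06). Socs3 stood at 228 against 165.5 CPM in WT (0.47) and at 300.1 against 261 in VISTA KO (0.20), under 1.5-fold in both. On the list of STAT3, its receptors and feedback genes 0 of 23 were past the rule, with medians of 0.11 and 0.06. The immediate early and zinc finger genes had 0 of 32, the MHC class II genes 0 of 10 with medians of 0.44 and 0.28, and the receptors of the Gpr84 kind 0 of 20. Arg1, the arginase of suppressive macrophages, stood at 1509 against 2223 CPM in WT (-0.56) and 1781 against 2306 in VISTA KO (-0.37).

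For several of these genes the level followed the amount of Cxcl9 and Gpr84 across all C1q macrophages. Cells were grouped by 0, 1 to 2, 3 to 9, 10 to 19 and 20 or more UMIs of both genes, the last pair being the members. Over those groups in order, Serpina3g stood at 20.1, 26.4, 57.4, 72.3 and 124.8 CPM in WT and at 23.9, 41.0, 58.7, 79.7 and 124.7 in VISTA KO. Sod2 went from 206 to 577 CPM in WT and from 214.5 to 692 in VISTA KO between the first and the last group. Ccl2 went from 3797 to 1742 and from 2730 to 1125. Pf4 kept no such order, at 112.8 and 370.9 CPM in the last pair of WT groups. Klf4 lay between 151.9 and 192.2 CPM over the WT groups. From the first to the last group Socs3 went from 154.8 to 251.2 CPM in WT and from 231.6 to 306.0 in VISTA KO. In both libraries its 10 to 19 group stood under its 3 to 9 group. Median UMIs per cell also differed, from 5176 in the first to 7958 in the last WT group and from 4651 to 8580 in VISTA KO, and their part was not tested.

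Values on both sides of the threshold rest on few cells. Cells just outside it, with 8 to 9 UMIs (44 in WT, 129 in VISTA KO), held Serpina3g at 65.9 and 59.8 CPM. Cells just inside, with 10 to 11 (22 and 107), held 99.5 and 57.7. Gbp2 stood at 949 and 707 CPM just outside and at 874 and 588 just inside.

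**Figure D3:**
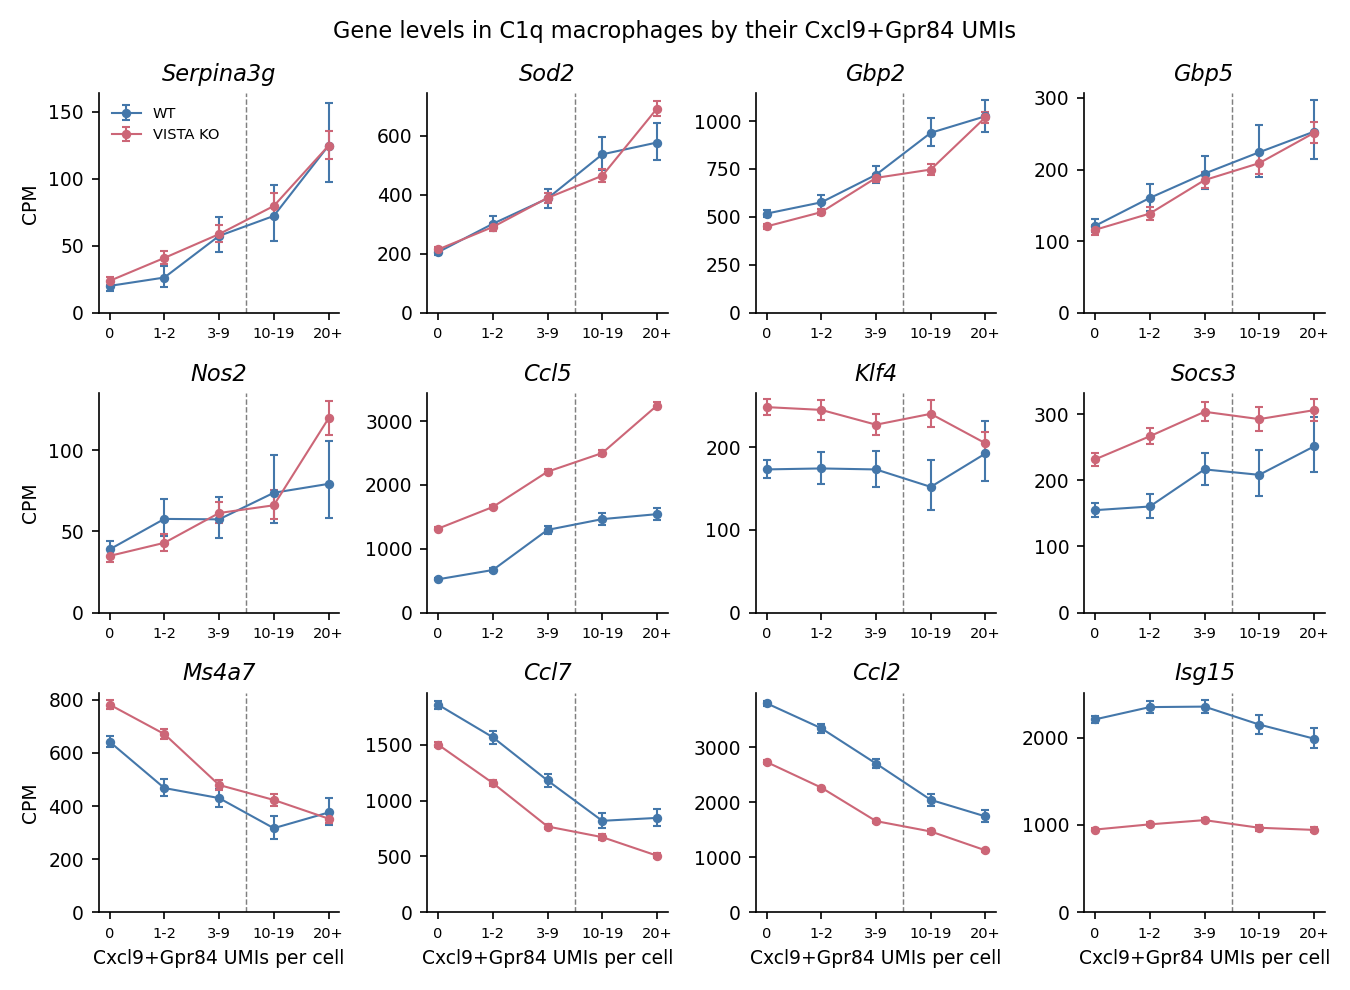
CPM of 12 genes (y axes, from 0) in C1q macrophages grouped by their UMIs of Cxcl9 and Gpr84 (x axis), for WT and VISTA KO, with exact Poisson 95% intervals. The dashed line is the threshold of the rule. Serpina3g ended at 124.8 and 124.7 CPM in the last group, against 20.1 and 23.9 in the first.

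The second comparison set the members beside cells that met the same threshold of Cxcl9 and Gpr84 UMIs but had a C1q sum under 10 (277 in WT, 674 in VISTA KO). Of 3345 genes, 32 were higher in the members in both libraries (0.957%) and 20 were lower (0.598%). On the lipid handling and TREM2 list 6 of 19 were higher (Trem2, Apoe, Spp1, Cd63, Abca1 and Ctsl) and 0 lower, with medians of 0.49 in WT and 0.35 in VISTA KO. On the alternative activation list 1 of 14 was higher (Pf4) and 1 lower (Chil3). Pf4 stood at 232 against 25.8 CPM in WT (log2 ratio 3.14) and 151.5 against 48.5 in VISTA KO (1.64). Ms4a7 had 2.51 and 1.15, Spp1 1.85 and 1.54, Ccl7 1.56 and 1.10, the lysosomal protease Lgmn 1.69 and 0.97 and the phospholipid transfer protein gene Pltp 1.01 and 1.30. Among the lower genes, Ccr7, the receptor that guides mature dendritic cells to lymph nodes, stood at 17.1 against 77.5 CPM in WT (-2.13) and 5.3 against 28.8 in VISTA KO (-2.42). Klrd1 had -3.18 and -2.31, and Ccl17, a chemokine for CCR4, -4.48 and -1.17. Ifitm1 (-1.03 and -1.01), Ifi205 (-0.93 and -1.08) and Ifitm6 (-0.68 and -0.73) were also lower.

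Of 30 interferon-gamma list genes measured against the cells with little C1q, 0 were past the rule in both libraries. The list's medians were -0.19 in WT and -0.31 in VISTA KO, beside 0.02 and -0.02 over all genes, and 8 and 3 of the 30 were above 0. Serpina3g stood at 144.9 and 155.8 CPM in the cells with little C1q, against 96.5 and 105.2 in the members. Sod2 stood at 757 and 728 CPM there, against 555 and 593. Cxcl9 itself stood at 3698 and 4016 CPM in cells that held little C1q, in which the same threshold is met at a lower depth (median 4936 and 4678 UMIs).

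Single chemokines were spread unevenly over the members. Cxcl9 was even by comparison, but the rule chose each member by its UMIs of Cxcl9 and Gpr84, so this evenness is no finding. The 5 members with most Cxcl9 held 9.33% of its UMIs in WT and 2.42% in VISTA KO. Ccl5 was found in 68.8% of WT members, where 13 cells held 50% of its UMIs, and in 91.0% of VISTA KO members, where 121 cells did. Ccl8, a chemokine of resident macrophages, was found in 16.1% of VISTA KO members, and 6 of the 856 cells held 50% of its 1049 UMIs. The NK gene droplets of that library held a Ccl8 UMI in 8.07% of cells, at a median of 2614 UMIs against 7990. Ccl24 had 12 such cells and Ccl17 had 4 in the VISTA KO library, while 2 WT members held 50% of the 26 Ccl17 UMIs there.

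Gpr84 marked a small part of the VISTA KO members. It reached 3 UMIs in 58 of them, against 3 of the 144 WT members, a split set after the values had been seen and too small for the WT library. These 58 cells had a median of 9503.5 UMIs against 7928 in the other 798. Their Cxcl9 stood at 2727 CPM against 2703 (log2 ratio 0.01, -0.06 to 0.08). Saa3, an acute phase protein gene, stood at 120.2 against 17.5 CPM (2.79, 2.36 to 3.19), and Ccl22, a chemokine of dendritic cells and macrophages, at 85.7 against 19.4 (2.16). Over all VISTA KO members, 5 cells held 45.9% of the 207 Saa3 UMIs, and 5 held 62.2% of the UMIs of the mature dendritic cell markers, of which Ccl22 was the highest. Clec4e, the Mincle receptor, stood at 353 against 163 CPM (1.12), the formyl peptide receptor gene Fpr2 at 82.7 against 36.4 (1.20) and Nos2 at 165.3 against 90.01 (0.89). Mgl2, a lectin of alternatively activated macrophages, stood at 28.6 against 81.9 CPM (-1.45).

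The VISTA KO members were then set beside the WT members, with 1 library each. A gene was counted when it was at least 1.5-fold apart, its interval left out equality and the members of both libraries held at least 100 UMIs of it together. Of 6515 genes, 271 were higher (4.16%) and 130 lower (2.0%) in the VISTA KO members, and the median log2 ratio over all genes was 0.01. Gpr84 was higher at 74.0 against 38.9 CPM (log2 ratio 0.90, 0.51 to 1.37), a gene of the rule. Cxcl9 (0.18), Klf4 (0.36) and Socs3 (0.39) were under 1.5-fold.

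Antigen presentation genes stood higher in the VISTA KO members. Of 10 MHC class II genes measured, 5 were past the rule and higher and 0 were lower, and the list's median was 0.54. H2-Aa stood at 2234 CPM in the WT members and 4798 in those of VISTA KO (1.10, 1.05 to 1.16). H2-Ab1 stood at 3125 and 6296 (1.01), H2-Eb1 at 2359 and 4901 (1.05) and the invariant chain gene Cd74 at 6461 and 11455 (0.83). Their master regulator Ciita stood at 59.2 and 95.5 (0.67). Other C1q macrophages had log2 ratios of 1.36, 1.28, 1.36, 1.08 and 1.04 for the same genes. In the NK gene droplets H2-Ab1 levels were 411 CPM for WT and 1348 for VISTA KO. Of 18 MHC class I genes 5 were higher (H2-Q4, H2-Q6, H2-Q7, H2-T23 and Tapbpl) and 0 lower, with H2-Q7 at 160.4 and 464 CPM (1.53), though the H2-Q genes are close copies of each other. Other C1q macrophages had H2-Q4, H2-Q6, H2-Q7 and H2-T23 past the rule and higher, but not Tapbpl.

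Interferon genes differed in both directions. On the interferon-gamma list 4 of 33 were higher (Ccl5, Pdcd1lg2, Ciita and Ly6i) and 1 lower (Slamf7), with a median of -0.00. Ccl5 stood at 1501 CPM in the WT members and 2922 in those of VISTA KO (0.96, 0.89 to 1.03). Pdcd1lg2, which encodes the PD-1 ligand PD-L2, stood at 20.2 and 67.0 (1.68, 1.16 to 2.36), while Cd274, which encodes PD-L1, stood at 163.5 and 182.4 (0.15, -0.05 to 0.37). Cxcl10 stood at 2659 and 1936 CPM (-0.46). It was past 1.5-fold, at -0.65, as a mean over cells and also without cells over 3 times the library median UMIs, and at -0.64 among members with at least 20 UMIs of Cxcl9 and Gpr84. Of 38 type I interferon-stimulated genes 1 was higher (Oas1a) and 4 were lower (Isg15, Ifi205, Ifi206 and Ifi211), with a median of -0.19. Other C1q macrophages had the same genes past the rule in the same direction. Ifi205 and Ifi206, like Slamf7 above, lie on chromosome 1, which also holds the gene of CD45. Strain differences and loss of VISTA cannot be told apart for them, nor for Ifi211, another Ifi gene, whose position is not given here. Isg15, a ubiquitin-like modifier, stood at 2075 and 954 CPM (-1.12, -1.18 to -1.06), and in other C1q macrophages its log2 ratio was -1.19.

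Cytokine genes were split. Of 24 inflammatory cytokines and myeloid chemokines 4 were higher (Ccl8, Ccl17, Ccl24 and Inhba) and 5 lower (Ccl3, Ccl4, Cxcl2, Cxcl3 and Csf1). Ccl8 stood at 17.9 CPM (11.4 to 26.9; 23 UMIs) in WT and 132.4 in VISTA KO members (log2 ratio 2.83, 2.29 to 3.55). Without the 5 WT members and 30 VISTA KO members with most of it, Ccl8 had 1.84. Ccl24, an eosinophil chemokine of alternative activation, stood at 44.4 and 123.9 (1.46), or 1.18 without the 5 and 30 members richest in it. Ccl17 stood at 20.2 and 51.9 (1.31), but without the richest 5 and 30 the log2 ratio was -0.17 (-2.12 to 6.14). Ccl4 stood at 578 and 350.5 CPM (-0.72), and Cxcl2, a neutrophil chemokine, at 416 and 190.8 (-1.13), with 64.4% of its WT UMIs in 5 cells. On the NF-kappaB list 5 of 29 were higher (Tnfaip3, Tnfaip2, Birc3, Bcl2a1d and Malt1) and 0 lower. In other C1q macrophages Ccl8, Inhba, Bcl2a1d and Malt1 were also higher, and Cxcl2, Cxcl3 and Csf1 also lower. Ccl17 was lower there, and the rest of the genes counted in this paragraph were not past the rule.

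For the STAT3 and polyamine genes, counts are given beside the 4.16% higher and 2.0% lower over all genes. Of 22 STAT3 genes 2 were higher, Bcl3 (0.62) and Il1rn, the interleukin-1 receptor antagonist (0.74), and 0 lower, with a median of 0.10. Stat3 itself stood at 133.9 and 144.2 CPM (0.10, -0.13 to 0.35). Of 15 polyamine genes 0 were higher and 1 was lower, the spermine synthase gene Sms at 40.5 and 27.1 CPM (-0.60). Odc1, the first enzyme of polyamine synthesis, stood at 57.6 and 46.2 (-0.33, -0.68 to 0.06). Of 13 arginine and nitric oxide genes 1 was higher, the arginine transporter Slc7a2 at 27.2 and 74.6 (1.42, 0.96 to 1.99). Arg1 stood at 1509 and 1781 (0.24) and Nos2 at 76.3 and 96.3 (0.32). Il1rn and Slc7a2 were past the rule and higher in other C1q macrophages too, while Bcl3 and Sms were not past it there.

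Of 7 cell cycle genes measured 3 were higher (Mki67, Top2a and Mcm3, with 8, 5 and 7 WT UMIs) and 0 lower, while in other C1q macrophages 0 of 16 were higher and 3 lower (Birc5, Ccnb2 and Stmn1). Of 17 alternative activation genes 4 were higher (Mrc1, Clec4n, Ccl24 and Axl) and 2 lower (Pf4 and Hmox1), with Mrc1, the mannose receptor, at 52.2 and 117.4 CPM (1.15). Of 25 lipid handling genes 3 were higher (Apoe, Cd63 and Acsl1) and 2 lower (Lpl and Ch25h), with Apoe at 2950 and 5219 CPM (0.82). C3 was the only 1 of 8 complement genes, at 371 and 571 (0.62), and the inhibitory Fc receptor gene Fcgr2b 1 of 11, at 413 and 715 (0.79). The 45 nuclear oxidative phosphorylation genes had 0 higher and 1 lower (Ndufa4), with a median of -0.06. The 19 toll-like receptor, 11 interleukin-1 and 11 heat shock genes had 0 in either direction. In other C1q macrophages Mrc1, Clec4n, Axl, Apoe, Acsl1, C3 and Fcgr2b were also past the rule and higher, and Pf4 lower. Ccl24, Hmox1, Cd63, Lpl and Ch25h were not past it there.

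The 10 highest and 10 lowest log2 ratios of VISTA KO over WT members included genes far apart in other cells of the libraries too. Ifi202b, an interferon-inducible gene of the Ifi200 family of close copies (chr1:173962569-173982844), had 30 UMIs in WT and 4150 in VISTA KO members, or 23.4 and 524 CPM (4.44, 3.97 to 5.06). It stood at 0.548 and 257 CPM in the NK gene droplets. Chil1 (chr1:134182156-134190031), a chitinase-like protein gene, had 215 UMIs in WT and 3 in VISTA KO members (-8.38, -11.08 to -7.22). Other C1q macrophages had 6.44 for Ifi202b and -7.77 for Chil1. Ppfia4 (4.23), Fcrla (3.84), Mid1 (3.26) and Pianp (3.08) were higher from 1 or 2 WT UMIs each. Nr1h3, which encodes the oxysterol receptor LXR-alpha, had 5 and 218 UMIs (2.57, 1.58 to 4.46), and Src (2.12), Impact (1.80) and Timm9 (1.78) followed. Ifi213 (-5.22), Ifi206 (-3.33), F11r (-2.06), Ifi205 (-1.93), Pttg1 (-1.89), Hist3h2a (-1.87), Ifi208 (-1.80) and the receptor gene Slamf7 (-1.78) were lower. G0s2, a lipase inhibitor, had -2.16, with 88.0% of its WT UMIs in 5 cells.

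Of these, 3 of the 10 highest and 8 of the 10 lowest lie on chromosome 1. That chromosome also holds Ptprc (chr1:138062859-138175756), which encodes CD45. Of 374 measured genes on chromosome 1, 10.4% were past the rule, beside 10.5% of 105 within 30 Mb of Ptprc and 5.88% of 6059 on other chromosomes. Among the 3 and 8 genes, only Ppfia4 and Chil1 lie within 30 Mb of Ptprc. The rest lie farther away, from Fcrla (start 170917594) to G0s2 (start 193272160), and the share within 30 Mb does not cover them. Loss of VISTA, strain differences carried along with the CD45 alleles and the library cannot be told apart in this design.

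**Figure D4:**
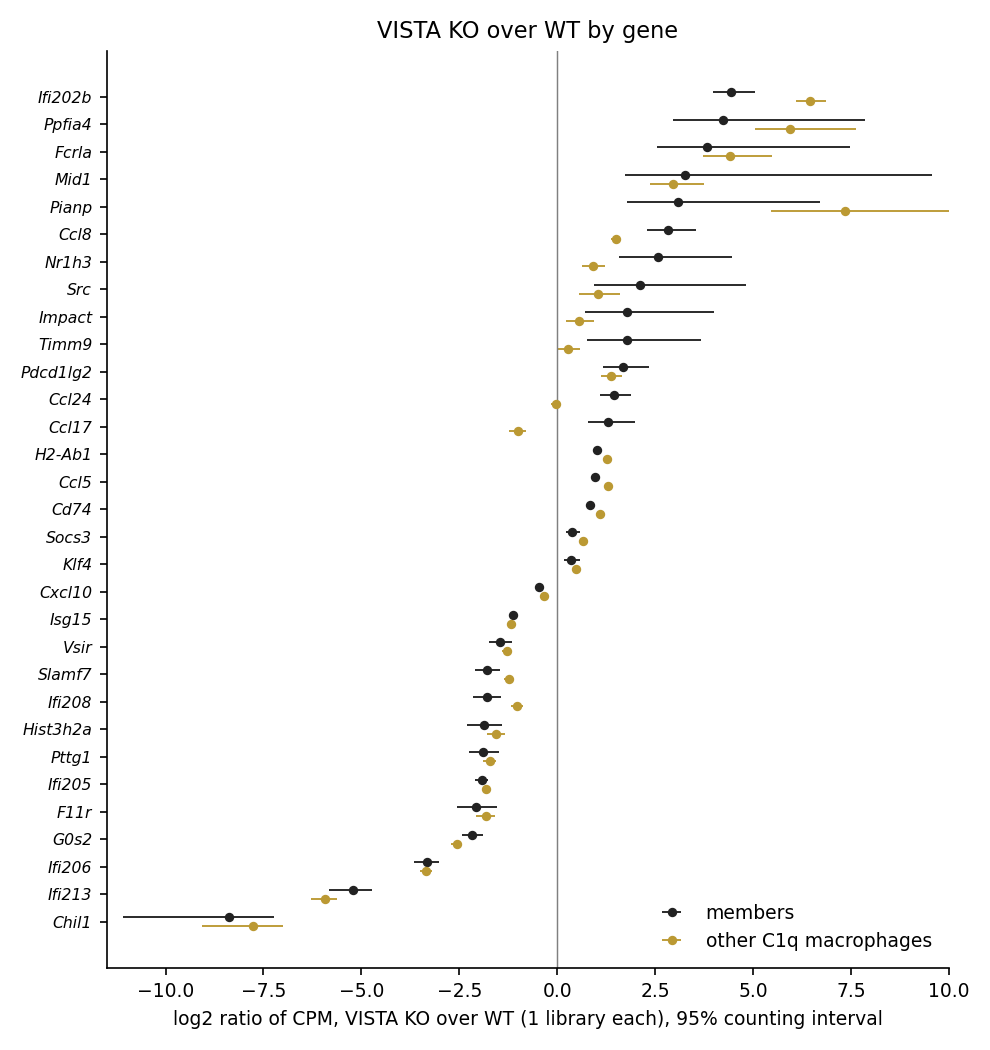
Log2 ratio of CPM, VISTA KO over WT (x axis, 1 library each), for 31 genes (rows) in members and in other C1q macrophages, with 95% counting intervals. The interval of Pianp in other C1q macrophages, where WT had 0 UMIs, runs past the axis. Ifi202b lies at 4.44 and Chil1 at -8.38 in the members, and Ccl17 lies on opposite sides of 0, at 1.31 in members and -1.01 in other C1q macrophages.

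The antibody tags are a readout the rule did not use. CD11c, an integrin that dendritic cells and many macrophages carry, had a median of 22 tag UMIs per WT member (quartiles 12 and 40.5) and 31 per VISTA KO member (15 and 66), against 19 and 21 in other C1q macrophages. Ly6C, the antigen of inflammatory monocytes, had 1983 and 1361, against 1592 and 1216, and 1083 and 1024 over all kept cells. Ly6G, the neutrophil antigen, had 9 and 7, against 8 and 6. Quartiles of members and other C1q macrophages overlapped for each tag. Among cells of 5000 to 20000 UMIs, a window added after the data had been seen, CD11c had a median of 23.5 in WT and 35 in VISTA KO members, against 23 and 29. Ly6C had 2022 and 1385 there, against 1729.5 and 1365. Cells with little C1q had CD11c medians of 10 and 12 and Ly6C medians of 1025 and 1108.5 over all depths. In the same window they had 18 and 20 for CD11c, both under the members. Their Ly6C was 1110 in WT, under the members, and 1557.5 in VISTA KO, above them.

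**Figure D5:**
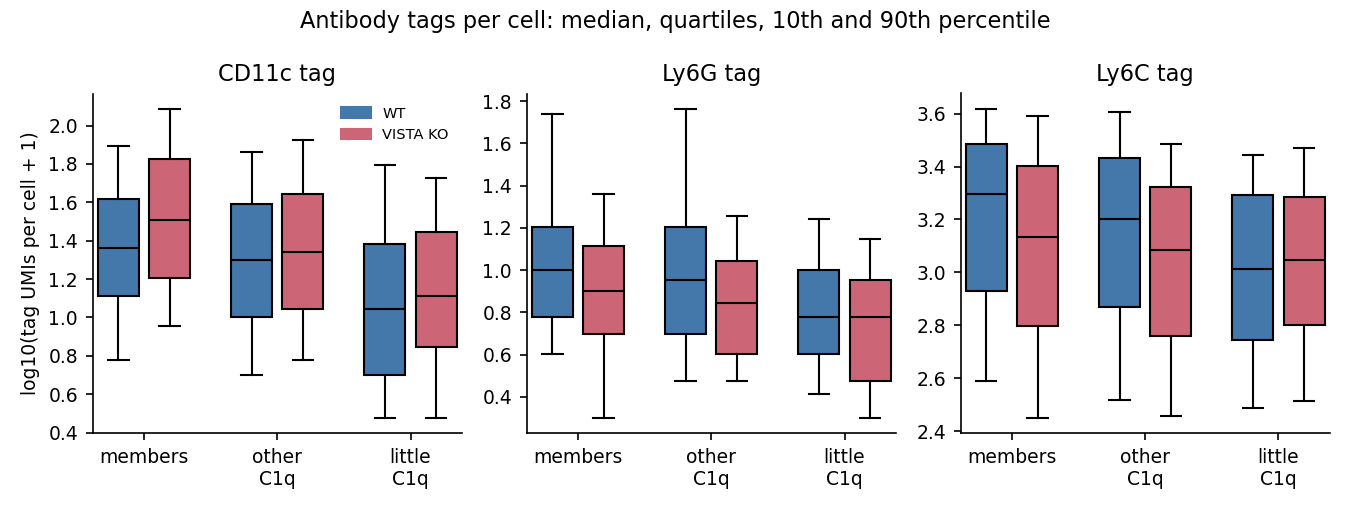
Tag UMIs per cell as log10 of the count plus 1 (y axes) for CD11c, Ly6G and Ly6C in members, other C1q macrophages and cells rich in Cxcl9 and Gpr84 with little C1q. Boxes span the quartiles with the median, and whiskers reach the 10th and 90th percentile of cells in the 1 WT and 1 VISTA KO library. CD11c medians of members were 22 and 31.

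Marker genes of other cell types were checked in the members. The 12 macrophage markers summed to 12641 CPM in WT and 15998 in VISTA KO members, against 15365 and 20034 in other C1q macrophages, and each was above 0. Among them C1qa, C1qb and C1qc, which the rule required, gave 8620 of the 16239 WT UMIs and 59451 of the 126702 in VISTA KO. The 8 monocyte markers summed to 10397 and 8074 CPM, against 10762 and 8608 in other C1q macrophages and 10520 and 9326 over all kept cells. The 12 neutrophil markers summed to 246.8 and 174.9, against 4335 and 1168 over all kept cells, with Ly6g and Camp at 0 in both libraries. The rule itself limited S100a8 and S100a9 in the members but not in all kept cells. These genes gave 113 of the members' 317 WT UMIs and 336 of the 1385 in VISTA KO. Other C1q macrophages, under the same limit, stood at 311 and 172 CPM. The 8 T cell markers summed to 24.9 and 1.89 CPM, and 28 of the 32 WT UMIs came from 1 cell. Basophil and mast cell markers summed to 32.7 and 1.01 CPM, with the WT UMIs all in at most 5 cells. Mature dendritic cell markers, which include Ccr7 and Ccl22, summed to 49.8 and 42.8 CPM, and 5 members held 89.1% of them in WT and 62.2% in VISTA KO. The part of these cells in the values of Ccl17 was not tested.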

How the data were processed

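Gene expression and antibody tags were measured in sorted CD11b+ tumor cells on 10x Genomics 3 prime chemistry. The deposited matrices hold counts: raw UMI counts per gene (32285 rows) or tag (3) and barcode. Cell Ranger 5.0.0 wrote them, per the file headers. Per the submitters' processing notes, mm10, Cell Ranger and Seurat 4.0 were used, with no role given. The deposited lists of barcodes, symbols and tag sequences hold names and no other measured value.

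Members were found by the rule in the opening. Members, gene lists and markers were chosen with earlier results of these data known. UMIs were summed per library and given as CPM with exact Poisson intervals. Shares have Clopper-Pearson intervals, and log2 ratios have a pseudocount of 1 UMI and exact conditional binomial 95% intervals (Python 3.11.15, numpy 2.4.6, scipy 1.17.1, pandas 2.3.3). No test was run. The ratio step was tried on simulated Poisson sums, which hold counting error only and not the spread between cells. Doublets were not called.

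Named genes were the 10 highest and 10 lowest log2 ratios of each comparison among genes with at least 100 UMIs and found in at least 5% of cells, without rule genes, Gm and Rik genes, Xist and mitochondrial, ribosomal or Y-linked genes. Beside them stand Vsir, the given markers and members of 27 fixed lists. Of the listed symbols, 5 (Cxcl11, Mx1, Mx2, Clec7a and Il36g) had no row to match. One item is not reported here. Further genes were named after their values were seen. Alternatives changed thresholds, limits, depth, the UMI minimum and the averaging. A planned comparison of members rich in Gpr84 with those rich in Cxcl9 could not be made, as no member had 2 or fewer Cxcl9 UMIs.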

Additional observations from a re-analysis of the deposited data

Results flagged for a closer look

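Ccl17 went in opposite directions in the members and in other C1q macrophages. Its log2 ratio, VISTA KO over WT, was 1.31 (0.79 to 1.99) in the members, from 26 and 411 UMIs, and -1.01 in other C1q macrophages. The same counts seen the other way gave a log2 ratio of members over other C1q macrophages of 1.49 in VISTA KO and -0.82 in WT. The difference itself was not tested, with 1 library per group. In VISTA KO 5 members held 61.3% of the Ccl17 UMIs, and in WT 5 members held 96.2%.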

How the results depend on the processing

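The 4.0-fold share difference was 2.16-fold without the limits on genes of other cell types and 3.21-fold over cells with a C1q sum of at least 10 UMIs. Under the other 9 forms of the rule it lay between 3.496-fold and 4.66-fold. The 130 genes lower in VISTA KO members were 215 with a minimum of 20 UMIs, and the 271 higher lay between 196 and 390. Against other C1q macrophages the 25 higher genes were 41 without cells over 3 times the library median, 43 against cells with at most 2 UMIs of Cxcl9 and Gpr84, and 44 as a mean over cells. The 21 lower were 13 in cells of 5000 to 20000 UMIs and 47 as a mean over cells. Against cells with little C1q, the 32 higher were 87 at 20 UMIs and 16 at 5000 to 20000 UMIs per cell, and the 20 lower were 44 at 20 UMIs and 38 as a mean over cells. The causes were not tested, except that a lower UMI minimum admits more genes. Of 216 values of named genes in VISTA KO over WT, 22 lay outside the reported value's interval, and 1 called gene changed direction, Ccl17 at -0.17 without its richest members. Of 110 values against other C1q macrophages 6 lost the call, and of 110 against cells with little C1q 2 did. No paired analysis was possible because there was only 1 library in each group. Depth limits genes under 100 UMIs, and the 144 WT members limit each ratio between libraries.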
